A study of Arabidopsis thaliana with 24 samples.

Results

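AT1G06620, AT1G06640, AT1G06645 and AT1G06650 are 4 dioxygenase genes of Arabidopsis thaliana that stand in a row on 1 strand of chromosome 1, and they are 4 of the 25960 genes in the data. AT1G06620 was selected on its siz1-2 minus WT difference over all stages of a shoot regeneration culture. Of the 20361 genes tested, it was the one most lowered in the mutant on the log2 scale of the main fit. In some other settings another gene, AT5G42460, was lowered more. The other 3 members were chosen because they neighbour AT1G06620 and belong to the same family. In wild type, AT1G06620 lay at 40.2 ± 3.78 rpm (reads per 1000000 library reads; SD, n = 3) in freshly cut hypocotyls, and in siz1-2 at 2.85 ± 0.421. The neighbours did not share a difference of this size. AT1G06640 was lower in siz1-2 by 0.60 ± 0.14 and AT1G06650 by 0.26 ± 0.06 on the log2 scale over the 4 stages, against 3.02 ± 0.08 for AT1G06620, and AT1G06645 had almost no reads in either genotype. The AT1G06650 difference lay in the stages before shoot-inducing medium.

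All 4 genes are annotated as members of the 2-oxoglutarate and Fe(II)-dependent dioxygenase superfamily. Enzymes of this superfamily bind iron at their active site and use molecular oxygen, most of them together with 2-oxoglutarate, to hydroxylate, desaturate or otherwise oxidise small molecules. In plants they make or break down gibberellins, flavonoids, glucosinolates, salicylic acid and jasmonates. ACC oxidase, which makes the hormone ethylene, is a member that uses ascorbate in place of 2-oxoglutarate, and the 4 genes are described as similar to it. SIZ1 catalyses sumoylation, the coupling of SUMO, a small protein related to ubiquitin, to target proteins, many of them in the nucleus.

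Expression was measured by RNA sequencing in hypocotyl explants of the Col-0 ecotype, either wild type (WT) or the siz1-2 mutant; the labels name no further allele or transgene in either. Seedlings were grown in the dark for 7 days at 22 °C, and pieces of hypocotyl about 10 mm long were taken at once (no later than 15 minutes after the cut; 0 d), following 4 days of culture on callus-inducing medium (CIM 4 d), or when 4 or 6 more days on shoot-inducing medium had passed (SIM 4 d and SIM 6 d). For replicates 2 and 3 at SIM 6 d the free-text labels exchange the days on the 2 media; the titles and sampling times were followed. CIM held the auxin 2,4-D at 0.5 µg/ml and the cytokinin kinetin at 0.05 µg/ml under constant light, and SIM held the auxin IAA at 0.15 µg/ml and the cytokinin 2-IPA at 0.5 µg/ml. Each of the 8 groups had 3 libraries, and the labels do not say whether these came from separate cultures, and a p-value here therefore covers the spread among these libraries alone, which may be technical.

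Library totals ran from 7979350 to 15591781 reads. In all 12 siz1-2 libraries the reads of SIZ1 isoform 1 minus those of isoform 3 came to -1 to 0, against 216 to 493 in the 12 WT libraries, so the part of SIZ1 that isoform 1 alone covers was without reads of its own in the mutant. LBD16 and ARR15 followed the media in WT. LBD16, an auxin-induced callus gene, averaged 118 rpm in WT at CIM 4 d and 19.7 rpm at 0 d. The cytokinin response gene ARR15 averaged 50.2 rpm in WT at SIM 4 d and 0.295 rpm at 0 d. Shoot genes followed SIM less closely. CUC2 averaged 15.9 rpm in WT already at CIM 4 d, and 26.2 rpm at SIM 4 d. STM averaged less at SIM 4 d than at 0 d in both genotypes, and more at SIM 6 d. The stem cell gene WUS had no read in any library before SIM. The 4 libraries that stood apart from their groups were WT replicate 1 at 0 d (RBCS1A 294 rpm, against 0.611 and 0.766 in the other replicates), WT replicate 2 and siz1-2 replicate 3 at CIM 4 d (ICS1, of salicylic acid synthesis, 182 and 174 rpm, against 6.20 to 9.26 in the other libraries at that stage) and WT replicate 2 at SIM 6 d (heat shock gene HSP101 283 rpm, against 32.3 and 30.2). Whole tissue was sampled, so fewer cells that express a gene and less RNA per cell cannot be told apart.

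In the TAIR10.1 annotation AT1G06620 lies on the plus strand of chromosome 1 from 2025544 to 2027413, AT1G06640 from 2031626 to 2034112, AT1G06645 from 2034156 to 2035824 and AT1G06650 from 2035718 to 2037366. The F-box gene AT1G06630 (2027606 to 2031388) separates the first from the other 3, so that 4212 bases lie between AT1G06620 and AT1G06640. AT1G06640 and AT1G06645 are 43 bases apart, and the ends of AT1G06645 and AT1G06650 overlap by 107 bases. An antisense non-coding gene, AT1G04487 (2035718 to 2036257), lies inside AT1G06650 on the opposite strand, and JASON (AT1G06660, 2037311 to 2040419), a gene known from meiosis in pollen, overlaps its end by 56 bases from that strand.

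**Figure D1:**
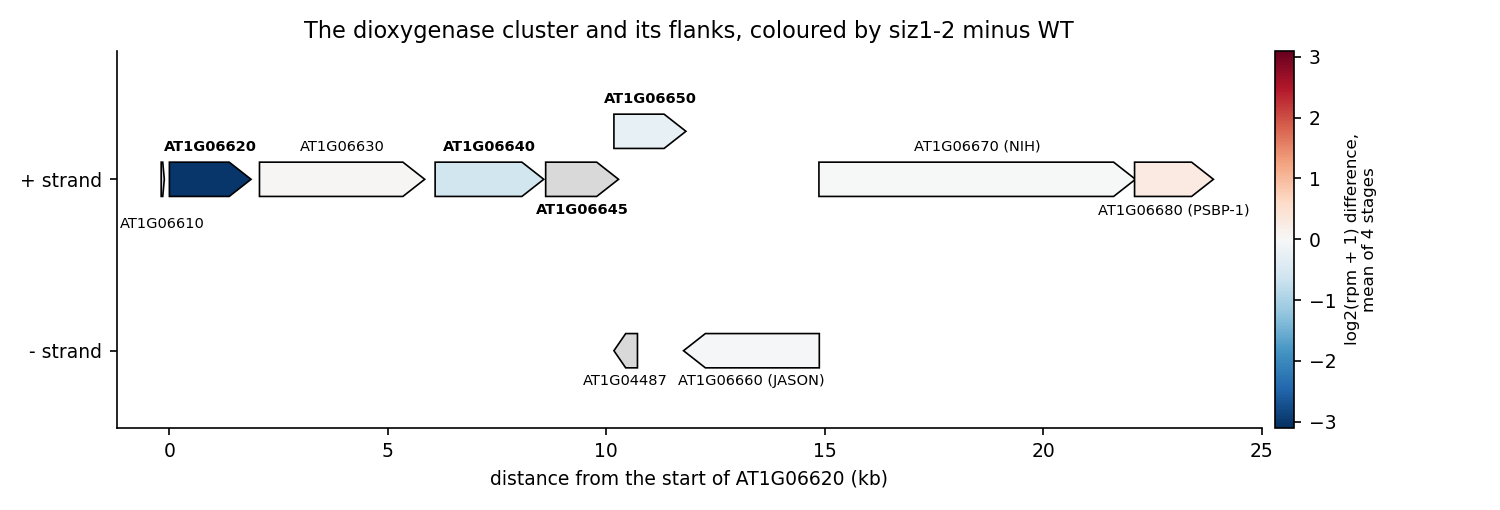
Map of the 4 dioxygenase genes (bold) and the flanking genes by distance from the start of AT1G06620 in kilobases, drawn to scale by strand, with AT1G06650 raised because it overlaps AT1G06645. Colour gives the siz1-2 minus WT difference on the log2(rpm + 1) scale averaged over the 4 stages; grey genes have no tested value; the dark colour of AT1G06620 (-3.02) stands beside pale colours from -0.60 to 0.28 for the other tested genes.

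The coding sequences place AT1G06620 apart from the other 3. It shared 70.4, 72.6 and 71.6% of aligned coding bases with AT1G06640, AT1G06645 and AT1G06650, while those 3 shared 86.6 to 88.6% with each other. The second exon has 322 bases in each of the 4 genes (isoform 2 for AT1G06650, isoform 1 for the others), of which 216 are the same in all. The first 120 bases of that exon are shown. They were picked because no other stretch of 120 bases in the exon has more bases that are the same in all 4 genes. Capitals mark bases that differ from AT1G06620, 5′ to 3′ on the plus strand of TAIR10.1. The windows are chr1:2026434-2026553, chr1:2033070-2033189, chr1:2034824-2034943 and chr1:2036520-2036639, all coding.
AT1G06620: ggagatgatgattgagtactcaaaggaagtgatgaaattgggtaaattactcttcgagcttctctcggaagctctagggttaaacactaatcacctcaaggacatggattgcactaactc
AT1G06640: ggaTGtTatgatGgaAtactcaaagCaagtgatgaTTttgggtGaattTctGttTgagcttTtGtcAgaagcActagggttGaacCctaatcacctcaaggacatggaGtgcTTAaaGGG
AT1G06645: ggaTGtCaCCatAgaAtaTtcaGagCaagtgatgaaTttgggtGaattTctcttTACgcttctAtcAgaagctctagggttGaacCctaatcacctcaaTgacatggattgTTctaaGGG
AT1G06650: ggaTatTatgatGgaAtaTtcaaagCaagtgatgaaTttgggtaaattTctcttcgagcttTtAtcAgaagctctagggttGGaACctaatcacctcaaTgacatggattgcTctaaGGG
In this window 25 bases of AT1G06640, 26 of AT1G06645 and 20 of AT1G06650 differ from AT1G06620, and 85 of the 120 are the same in all 4.

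How well reads can be told apart follows from such stretches. The longest exact run that AT1G06620 shares with a neighbour is 28 bases, and none of its 30-base words occurs in another annotated gene. Among the other 3 the longest shared runs are 41 bases (AT1G06640 and AT1G06645), 85 (AT1G06640 and AT1G06650) and 107 (AT1G06645 and AT1G06650, the overlap of the genes). Of the 30-base words of the AT1G06640 transcript used here 4.54% occur in another gene, of AT1G06645 9.93%, and of AT1G06650 34.1%. For AT1G06650, 8.79% of all its words occur in the other dioxygenase genes, and the rest of the 34.1% in genes on the opposite strand. The library kit was stranded, but the read length, and whether strand was used in counting, are not given in the sources used here. AT1G06640 had many times the reads of AT1G06650 and AT1G06645, so part of the reads of those 2 genes could be its own, and this was not tested.

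AT1G06620 in WT stood at 37.8, 38.2 and 44.5 rpm in the 3 libraries at 0 d, at 10.1, 8.53 and 7.02 rpm at CIM 4 d, at 17.5, 15.7 and 18.3 rpm at SIM 4 d, and at 21.9, 18.0 and 16.0 rpm at SIM 6 d. In siz1-2 it stood at 2.94, 2.39 and 3.22 rpm at 0 d, at 0.648, 0.897 and 0.734 rpm at CIM 4 d, at 1.60, 0.822 and 1.35 rpm at SIM 4 d, and at 1.09, 1.498 and 0.774 rpm at SIM 6 d. Every siz1-2 library was below every WT library, also across stages. The highest siz1-2 library (3.22 rpm, 0 d) was below the lowest WT library (7.02 rpm, CIM 4 d). AT1G06620 was chosen on this difference, so a gap of this kind adds no separate evidence. Within a stage, 19.8, 8.28, 9.21 and 8.71% of all tested genes had siz1-2 below all WT libraries, in stage order. No share was computed for a gap across stages. The siz1-2 values rest on 7 to 29 reads per library, so the transcript was still detected in each of the 12.

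**Figure D2:**
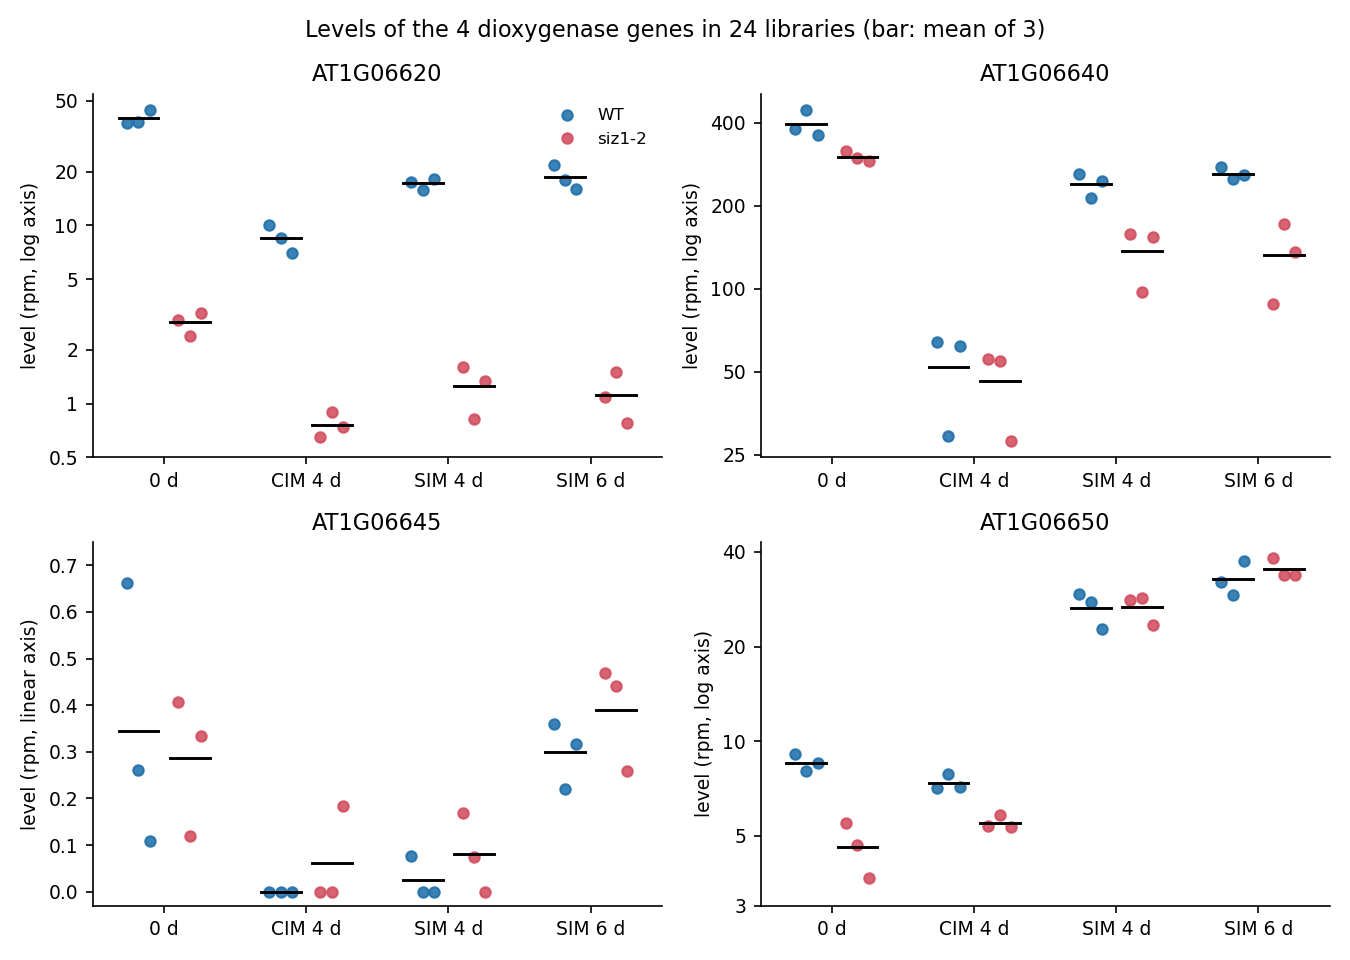
Levels of the 4 genes in rpm by stage; each point is 1 library, blue for WT and red for siz1-2, and the bar is the mean of 3. The log axes show AT1G06620 apart between genotypes at every stage, AT1G06640 lowest at CIM 4 d, and AT1G06650 highest on SIM; AT1G06645, on a linear axis, does not pass 0.662 rpm.

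As a ratio of summed reads per library total, WT exceeded siz1-2 for AT1G06620 by 13.9-fold at 0 d (95% counting interval 11.1 to 17.7), 11.4-fold at CIM 4 d (7.56 to 18.0), 13.8-fold at SIM 4 d (10.4 to 18.8) and 17.3-fold at SIM 6 d (12.7 to 24.05). The 4 intervals, which cover counting error only, overlap. On the log2(rpm + 1) scale, which understates changes of low values, the difference was -3.42, -2.43, -3.02 and -3.21 at the 4 stages, each ± 0.17 (SE). These differences chose the gene and are given without a test. Averaged over the stages AT1G06620 (-3.02) ranked first among the tested genes on this scale. Next were AT5G42460, an F-box protein gene, at -2.56, and MSRB5 (AT4G04830), a methionine sulfoxide reductase gene, at -2.20. AT1G06620 ranked second with a pseudocount of 0.25 and in edgeR, and at place 4 in DESeq2. AT5G42460 ranked first in each of these, at -4.27 against -3.55, -7.64 against -3.79 and -7.59 against -3.80 for AT1G06620.

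The groups of AT1G06620 fell in the order WT 0 d, WT SIM 6 d, WT SIM 4 d, WT CIM 4 d, siz1-2 0 d, siz1-2 SIM 4 d, siz1-2 SIM 6 d and siz1-2 CIM 4 d. The libraries of the 2 WT SIM groups overlapped, as did those of siz1-2 SIM 4 d with SIM 6 d and of siz1-2 SIM 6 d with CIM 4 d.

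The course over the culture did not enter the choice. In WT, AT1G06620 fell from 0 d to CIM 4 d by 2.12 ± 0.17 (log2, SE; limma adjusted p = 4.02e-10), and in siz1-2 it fell by 1.13 ± 0.17 (limma adjusted p = 3.5e-06). Of all genes tested, 75.7% passed this test in WT and 77.0% in siz1-2, so a change at this step is what most genes showed. A fall was the less common direction, called in 26.6% in WT and 27.3% in siz1-2, against 49.1 and 49.6% called higher. From CIM 4 d to SIM 4 d AT1G06620 rose in WT by 0.94 ± 0.17 (limma adjusted p = 0.000121, with 45.7% of genes passing and 21.2% as higher). In siz1-2 the value was 0.35 ± 0.17 (limma adjusted p = 0.0851, with 53.9% passing and 28.8% as higher). From SIM 4 d to SIM 6 d the values were 0.10 in WT and -0.09 in siz1-2 (limma adjusted p = 0.844 and 0.997). The genotypes differed in the first step by 0.99 ± 0.23 (limma adjusted p = 0.0237; 3.15% of genes passed), but edgeR on the reads gave 0.31 (adjusted p = 0.783) a pseudocount of 0.25 gave 0.59 (limma adjusted p = 0.359), and a pseudocount of 5 gave 1.295 (6.66e-06). By reads, the level at CIM 4 d was 0.218 times that at 0 d in WT (95% counting interval 0.190 to 0.249) and 0.266 times in siz1-2 (0.162 to 0.421), and these intervals overlap.

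AT1G06640 had the highest rpm of the 4 in every group. Per kilobase of transcript, its level in WT at SIM 6 d was 119.8 ± 6.57 rpm per kb (SD, n = 3), against 12.5 ± 2.01 for AT1G06620, 24.2 ± 3.06 for AT1G06650 and 0.199 ± 0.048 for AT1G06645. Lengths were those of the TAIR10.1 annotation, which need not be those used in counting. For AT1G06640 the length was the 2187 bases of isoform 1. Isoform 2, of 1506 bases, had nearly as many reads, and its length would give a higher value per kb. In WT it stood at 380, 446 and 363 rpm at 0 d, at 64.3, 29.2 and 61.9 rpm at CIM 4 d, at 260, 214 and 247 rpm at SIM 4 d, and at 278, 250 and 258 rpm at SIM 6 d. In siz1-2 it stood at 315, 298 and 292 rpm at 0 d, at 55.7, 54.5 and 28.1 rpm at CIM 4 d, at 158, 97.6 and 154 rpm at SIM 4 d, and at 88.3, 172 and 136 rpm at SIM 6 d. All siz1-2 libraries were below all WT libraries at 0 d, SIM 4 d and SIM 6 d, and the genotypes overlapped at CIM 4 d. Such a gap below WT was found in 19.8, 8.28, 9.21 and 8.71% of all tested genes at the 4 stages in order.

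Averaged over the stages, AT1G06640 was lower in siz1-2 by 0.60 ± 0.14 (log2, SE; limma adjusted p = 0.00792), and 6.51% of all tested genes passed as lower in this comparison. No single stage passed: the differences at the 4 stages in order were -0.39, -0.15, -0.84 and -1.03, each ± 0.29 (limma adjusted p = 0.441, 0.922, 0.164 and 0.0606). At SIM 6 d the call depended on the setting, with an adjusted p of 0.0113 in DESeq2 and of 0.0118 in limma without the 4 libraries that stood apart; at SIM 4 d that limma fit gave 0.0222. The reads of WT exceeded those of siz1-2 by 1.32-fold at 0 d, 1.08-fold at CIM 4 d, 1.76-fold at SIM 4 d and 2.00-fold at SIM 6 d. Whether the difference changed between stages did not pass the test at any step (limma adjusted p = 0.84, 0.636 and 1; 3.15, 0.211 and 0.00982% of all genes passed).

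**Figure D3:**
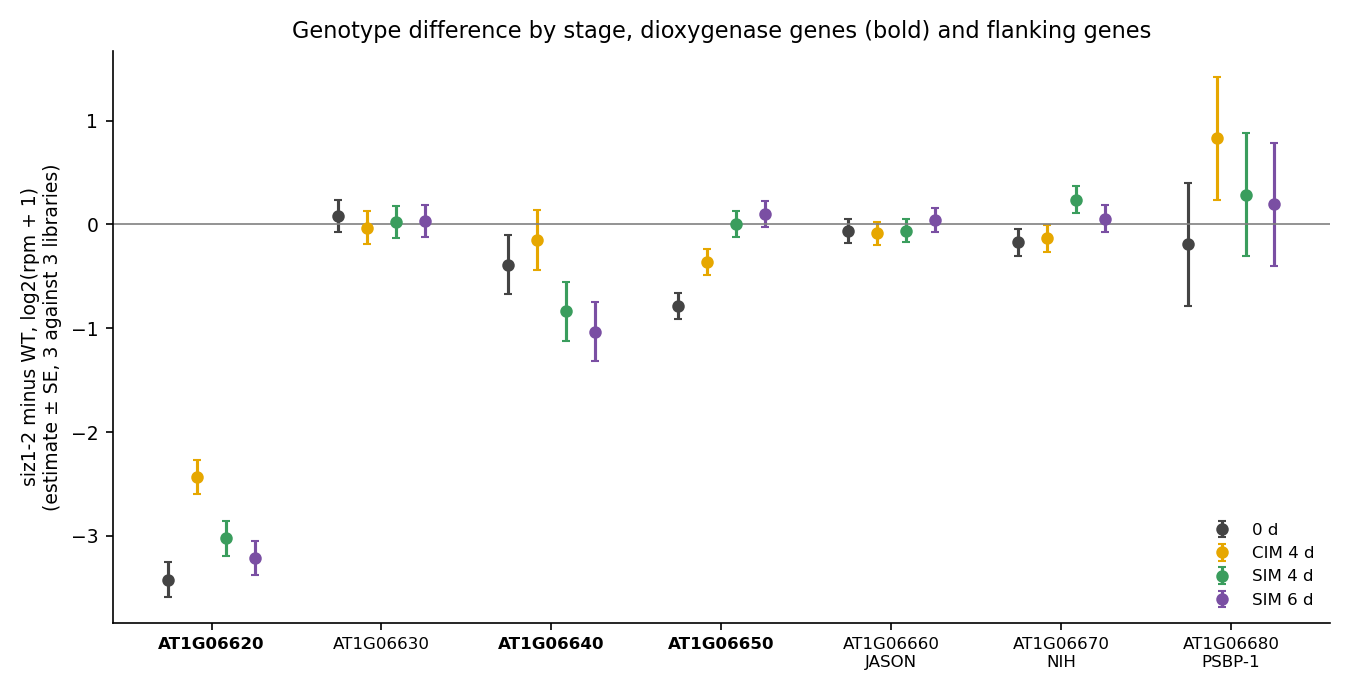
Difference siz1-2 minus WT on the log2(rpm + 1) scale for the tested dioxygenase genes (bold labels) and the 4 flanking genes, in map order; points are estimates and bars their SE, coloured by stage, 3 libraries against 3. AT1G06620 lies from -3.42 to -2.43, AT1G06640 and AT1G06650 from -1.03 to 0.10, and no flanking gene was called at any stage.

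Within each genotype AT1G06640 fell steeply on CIM, by 2.99 ± 0.29 in WT and by 2.75 ± 0.29 in siz1-2 (limma adjusted p = 1.49e-08 and 4.44e-08), and rose on SIM 4 d by 2.27 ± 0.29 and 1.58 ± 0.29 (limma adjusted p = 3.81e-06 and 0.000147). Of all tested genes, limma called 26.6% lower in WT and 27.3% in siz1-2 on CIM. On SIM 4 d it called 21.2 and 28.8% higher. The last step gave 0.13 in WT and -0.07 in siz1-2, neither called. The lowest library of each genotype at CIM 4 d, WT replicate 2 (29.2 rpm) and siz1-2 replicate 3 (28.1 rpm), were the libraries with ICS1 at 182 and 174 rpm; the part of that state in the level was not tested. Isoform 1 of AT1G06640, whose first exon begins upstream of the other isoforms, gave the value used here, and 4.67 to 11.3% of its reads over the 24 libraries were in excess of the reads of isoform 3.

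AT1G06645 was close to silent. Its reads per library in WT were 8, 3 and 1 at 0 d, 0, 0 and 0 at CIM 4 d, 1, 0 and 0 at SIM 4 d, and 5, 3 and 4 at SIM 6 d. In siz1-2 they were 4, 1 and 3 at 0 d, 0, 0 and 2 at CIM 4 d, 2, 1 and 0 at SIM 4 d, and 6, 5 and 4 at SIM 6 d. The groups of the 2 genotypes overlapped at every stage, and the sums over all stages were 25 reads in WT and 28 in siz1-2, a WT to siz1-2 ratio of 0.874 (95% counting interval 0.489 to 1.56). It did not reach 1 rpm in 3 libraries and was therefore not tested. In the fit without that filter its average difference was 0.05 ± 0.06 (limma adjusted p = 0.716). A count of 0 allows up to 3 reads, which is 0.283, 0.253 and 0.376 rpm in the 3 WT libraries at CIM 4 d, counting error only.

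AT1G06650 was low before SIM and rose there. In WT it stood at 9.10, 8.02 and 8.54 rpm at 0 d, at 7.08, 7.86 and 7.14 rpm at CIM 4 d, at 29.4, 27.6 and 22.7 rpm at SIM 4 d, and at 32.1, 29.2 and 37.4 rpm at SIM 6 d. In siz1-2 it stood at 5.48, 4.67 and 3.66 rpm at 0 d, at 5.37, 5.83 and 5.32 rpm at CIM 4 d, at 28.0, 28.5 and 23.5 rpm at SIM 4 d, and at 38.2, 33.8 and 33.7 rpm at SIM 6 d. The siz1-2 libraries were below all WT libraries at 0 d and CIM 4 d and overlapped them on SIM. Such a gap below WT was found in 19.8% of all tested genes at 0 d and in 8.28% at CIM 4 d.

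At 0 d AT1G06650 was lower in siz1-2 by 0.78 ± 0.12 (log2, SE; limma adjusted p = 0.000318), a comparison in which 6.60% of all tested genes passed as lower. The differences at the other stages in order were -0.36, 0.01 and 0.10, each ± 0.12 (limma adjusted p = 0.172, 0.992 and 0.817). Of the 2 neighbours tested, limma thus called 1 at 0 d and none at CIM 4 d, SIM 4 d or SIM 6 d, where 1 of the 2 had an unadjusted p below 0.05 at each stage; edgeR also called none at these 3 stages, and DESeq2 called 1, AT1G06640, at SIM 6 d. Over all tested genes limma called 11.0, 2.20, 2.20 and 3.01% at the 4 stages in order, in either direction. Averaged over the stages AT1G06650 was lower by 0.26 ± 0.06 (limma adjusted p = 0.00801), while its differences on SIM were 0.10 or less. By reads summed over all stages, most of them from SIM, the WT to siz1-2 ratio was 1.01 (95% counting interval 0.963 to 1.07). In the 0 d groups HSP101 also differed, at 89.9 to 193 rpm in the siz1-2 libraries and 15.2 to 22.2 rpm in the WT libraries, and its part in the result was not tested.

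From CIM 4 d to SIM 4 d AT1G06650 rose by 1.72 ± 0.12 in WT and by 2.08 ± 0.12 in siz1-2 (limma adjusted p = 1.9e-09 and 1.09e-10). Of all tested genes, limma called 21.2% higher in WT and 28.8% in siz1-2 there. From 0 d to CIM 4 d the values were -0.19 ± 0.12 in WT and 0.23 ± 0.12 in siz1-2, neither called (limma adjusted p = 0.169 and 0.103). The WT value became -0.58 (limma adjusted p = 0.000193) and the siz1-2 value turned to -0.16 (0.243) when libraries were scaled by the median of gene ratios, which moves the median of all genes by up to 0.37 at this step. The genotypes did not differ in any step by the test (limma adjusted p = 0.233, 0.529 and 1). From SIM 4 d to SIM 6 d the values were 0.30 in WT and 0.39 in siz1-2, neither called (limma adjusted p = 0.324 and 0.215; 0.589 and 0.629% of genes passed).

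**Figure D4:**
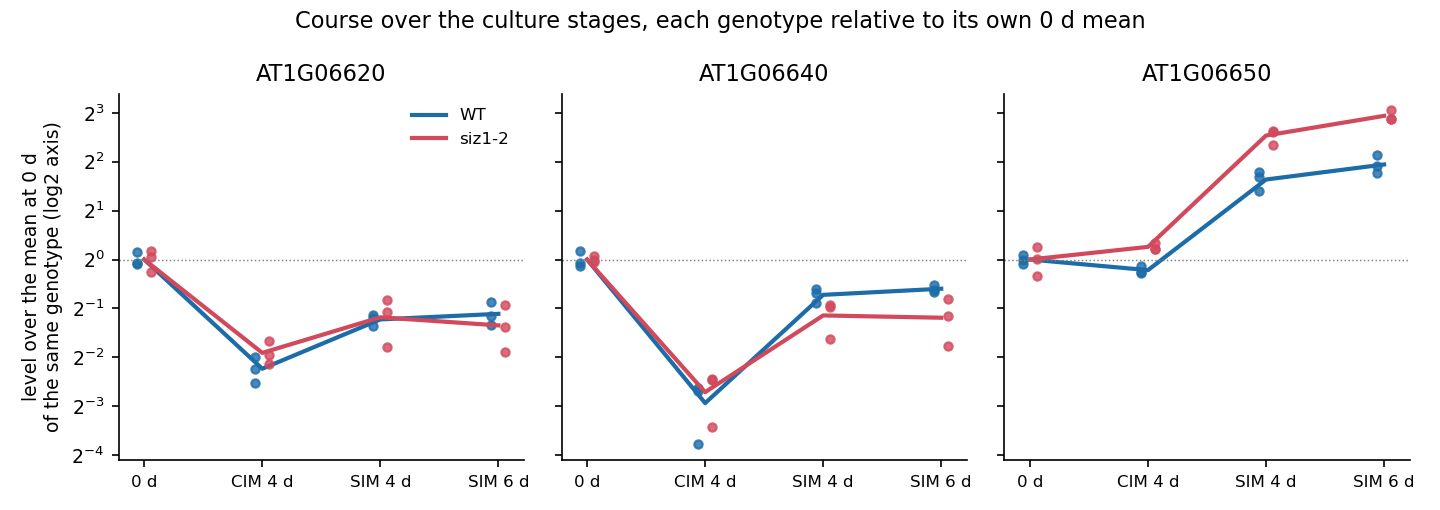
Levels of the 3 expressed genes over the culture stages relative to the mean at 0 d of the same genotype, on a log2 axis; points are libraries and lines join group means, blue for WT and red for siz1-2. AT1G06620 and AT1G06640 dip at CIM 4 d in both genotypes, and AT1G06650 is highest on SIM.

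The group orders of the neighbours differed from that of AT1G06620. AT1G06640 was highest in WT 0 d and then siz1-2 0 d, followed by the 2 WT SIM groups, the 2 siz1-2 SIM groups and the 2 CIM groups, with overlapping libraries within each of the last 3 pairs. AT1G06650 was highest in the SIM 6 d groups of both genotypes, which overlapped, and lowest in siz1-2 0 d, which overlapped siz1-2 CIM 4 d. Over the 24 libraries, on log2(rpm + 1), Pearson's r was 0.56 between AT1G06620 and AT1G06640, 0.06 between AT1G06620 and AT1G06650 and 0.21 between AT1G06640 and AT1G06650; the points share 8 groups and their scaling, and no test was made.

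The genes of highest r among all tested genes are given as a description; for AT1G06620, r contains the genotype gap that chose it, and AT5G42460 and MSRB5 are also next to it in that ranking. The 5 genes most like AT1G06620 by r over the same 24 libraries were AT5G42460 (F-box, 0.95), MEB1 (AT4G27860, annotated with the vacuolar iron transporter family, 0.91), MSRB5 (0.88), STP4 (AT3G19930, a sugar transporter, 0.86) and MRD1 (AT1G53480, 0.84). AT5G42460 averaged 6.23 rpm in WT at 0 d and 0.0398 rpm in siz1-2, and it had no read in siz1-2 on SIM. MSRB5 averaged 52.6 rpm in WT and 8.86 rpm in siz1-2 at 0 d, and 12.4 and 2.38 rpm at CIM 4 d. The 2 most like AT1G06640 were JR1 (AT3G16470), a jasmonate-responsive lectin gene, and AT5G38010, of the UDP-glycosyltransferase family, both at 0.98. The 2 most like AT1G06650 were AT5G46270, a disease resistance gene of the TIR-NBS-LRR class, and WAKL6 (AT1G16110), a wall-associated kinase-like gene, also both at 0.98.

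Of the flanking genes, AT1G06630, which lies between AT1G06620 and AT1G06640, averaged 22.9 ± 4.32 rpm in WT and 22.3 ± 2.71 rpm in siz1-2 at CIM 4 d, and its difference over the stages was 0.03 ± 0.08 (limma adjusted p = 0.896). JASON, the nuclear helicase gene NIH (AT1G06670) and PSBP-1 (AT1G06680), which encodes a protein of the oxygen-evolving complex, gave -0.04 ± 0.06, -0.0027 ± 0.06 and 0.28 ± 0.30. Of these 4 genes limma, edgeR and DESeq2 called none in any of the 5 genotype comparisons, and none had an unadjusted p below 0.05. Over all tested genes limma called 11.0, 2.20, 2.20 and 3.01% at the 4 stages in order and 12.5% over the stages, so a count of 0 among 4 genes is near the background. At 0 d the siz1-2 libraries of NIH were below all WT libraries (60.8 to 68.0 against 71.9 to 74.8 rpm). Such a gap was found in 19.8% of all tested genes. Without the 4 libraries that stood apart PSBP-1 was called higher in siz1-2 (0.53, limma adjusted p = 0.0101). The courses of the flanking genes were mixed. JASON rose on CIM by 2.04 ± 0.11 in WT and 2.02 ± 0.11 in siz1-2, and NIH by 1.08 ± 0.13 and 1.12 ± 0.13, both called. At this step limma called 49.1% of all tested genes higher in WT and 49.6% in siz1-2. PSBP-1, called higher on CIM in siz1-2 alone, rose from CIM 4 d to SIM 4 d, as AT1G06650 did. The rise was 2.48 in WT and 1.94 in siz1-2, both called (21.2 and 28.8% of all tested genes were called higher). AT1G06630 was not called in any step.

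The sequence just before AT1G06620 and AT1G06640 is shown because these 2 genes differ in how far they lie apart between the genotypes. Each run is the 250 bases before the annotated gene start, chr1:2025294-2025543 and chr1:2031376-2031625, on the plus strand of TAIR10.1, and capitals mark matches on either strand to TTGAC (the core of the W-box bound by WRKY factors), CACGTG (the G-box), TGACG (bound by TGA factors) and GCCGCC (bound by ERF factors).
AT1G06620: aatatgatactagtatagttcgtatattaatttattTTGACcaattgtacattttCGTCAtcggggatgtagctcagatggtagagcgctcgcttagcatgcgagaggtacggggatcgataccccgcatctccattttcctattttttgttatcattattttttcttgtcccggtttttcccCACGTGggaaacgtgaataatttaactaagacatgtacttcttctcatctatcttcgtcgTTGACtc
AT1G06640: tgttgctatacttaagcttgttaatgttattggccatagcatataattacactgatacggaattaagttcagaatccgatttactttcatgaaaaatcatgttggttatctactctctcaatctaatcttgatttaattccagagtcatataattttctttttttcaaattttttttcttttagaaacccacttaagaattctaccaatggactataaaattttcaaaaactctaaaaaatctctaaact
Upstream of AT1G06620 are TTGAC at -214 and -7, TGACG at -195, read as CGTCA on this strand, and CACGTG at -67. The run before the gene start of AT1G06640, where isoform 1 begins, has none of the 4 words. Isoforms 2 and 3 of AT1G06640 begin downstream, at 2032338, and the bases before that start were not searched. At most 6.46% of the isoform 1 reads in a library were in excess of the isoform 2 reads. The run shown may therefore not lie before the main start, and how often each start was used was not tested. The run before AT1G06645 has TGACG at -61, and the run before the gene start of AT1G06650 has none. Over 27443 such runs of the annotation, TTGAC occurs in 44.9%, TGACG in 18.6%, CACGTG in 6.49% and GCCGCC in 1.87%. A TTGAC and a TGACG match can overlap, and they do not here. The transfer RNA gene AT1G06610 (2025356 to 2025428) lies inside the first run. A match is a string of letters and not a site of binding.

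Related enzymes elsewhere in the genome did not show one direction over the stages. Of 12 ACC oxidase homologs, with GSL-OH among them, 10 were tested, and over the stages limma called 2 higher and 0 lower in siz1-2 (5.96% and 6.51% of all tested genes), with a median of 0.03 against -0.0033 for all genes. At 0 d it called 2 lower, both named after their values were seen: AT5G43440 by 1.12 ± 0.21 (adjusted p = 0.00134) and AT1G03410 by 0.36 ± 0.11 (0.0389); 6.60% of all tested genes were called lower at this stage. The call of AT1G03410 held in 24 of 35 alternatives. It was lost in edgeR (0.0762), in DESeq2 (0.13), with median-of-ratios scaling (limma adjusted p = 0.0889), with the replicate block (0.0538), in the compared groups only (0.0703), without the 4 libraries that stood apart (0.0522), and without any 1 of WT replicates 1, 2 and 3 and siz1-2 replicates 1 and 3 at 0 d (0.0784 to 0.129). At the 3 later stages limma called none, where 3, 1 and 1 had an unadjusted p below 0.05. DESeq2 called 1 of them, AT5G59530, higher at CIM 4 d, and edgeR none at those stages. Higher over the stages were AT5G59530 and AT5G59540, by 0.64 ± 0.14 (limma adjusted p = 0.0047) and 0.48 ± 0.13 (0.0157). AT5G59530 averaged 10.7 ± 3.90 rpm in WT and 23.3 ± 7.49 rpm in siz1-2 at CIM 4 d. GSL-OH (AT2G25450), a glucosinolate hydroxylase and the most abundant of the list, averaged 989 ± 57.0 rpm in WT and 1234 ± 76.3 rpm in siz1-2 at 0 d, and was not called in any of the 5 genotype comparisons.

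**Figure D5:**
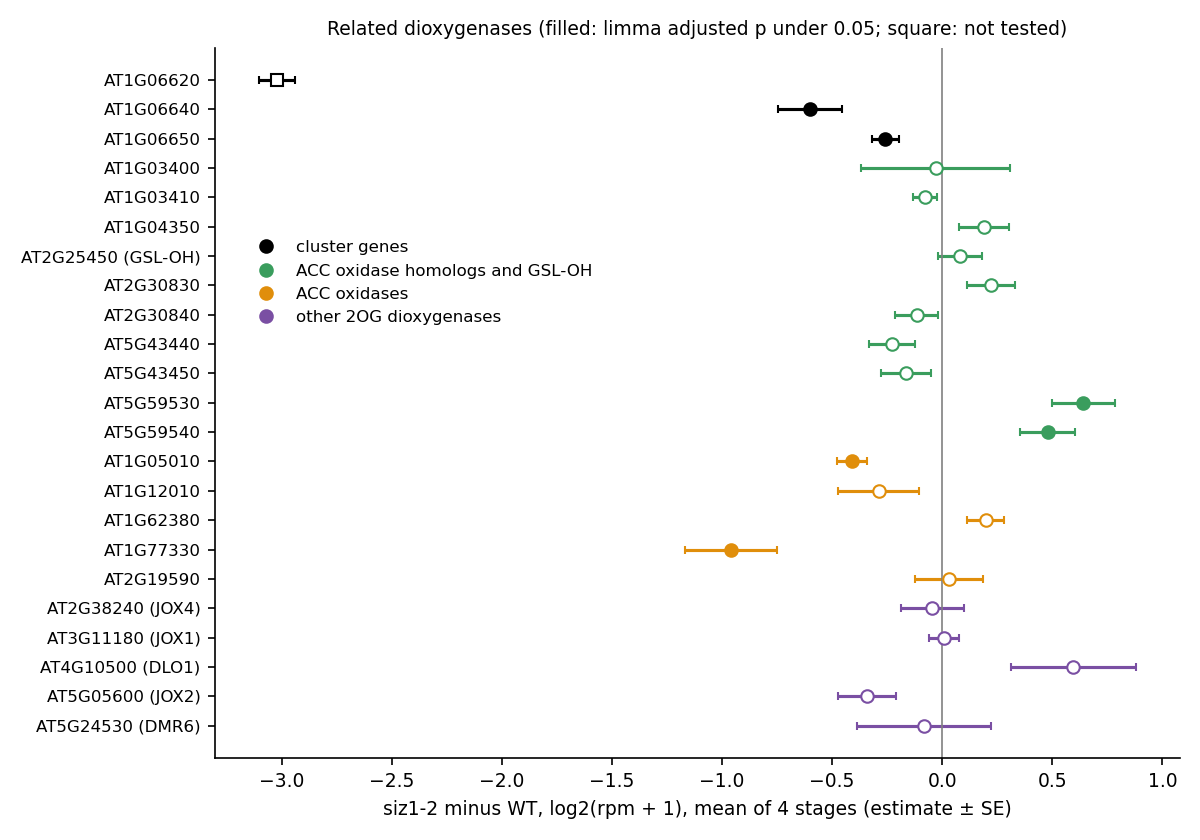
Difference siz1-2 minus WT on the log2(rpm + 1) scale, averaged over the 4 stages, for the cluster genes and 3 lists of related dioxygenases; points are estimates and bars their SE, filled where the limma adjusted p was under 0.05 and square for AT1G06620, which was not tested because this value chose it. AT1G06620 lies at -3.02, and the others lie between -0.96 and 0.64.

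All 5 ACC oxidase genes were tested, and 2 were lower over the stages and 0 higher (6.51% and 5.96% of all tested genes), with a median of -0.29 against -0.0033 for all genes. At 0 d all 5 estimates were below 0, from -0.74 to -0.21, with a median of -0.40 against -0.07 for all genes. Limma called 1 of them lower at 0 d, where it called 6.60% of all tested genes lower. DESeq2 called 1 lower at SIM 4 d, where limma and edgeR called 0. AT1G05010, the ethylene-forming enzyme, was lower by 0.41 ± 0.07 (limma adjusted p = 0.000354), from 41.5 ± 3.50 rpm in WT to 26.0 ± 2.30 rpm in siz1-2 at 0 d. AT1G77330 was lower by 0.96 ± 0.21 (limma adjusted p = 0.00397), with means at the 4 stages in order of 36.8, 68.6, 35.4 and 21.6 rpm in WT and 29.3, 51.4, 12.1 and 5.97 rpm in siz1-2. At SIM 6 d alone its difference was -1.62 ± 0.42 (limma adjusted p = 0.0409), which ran from -2.12 to -1.15 with 1 library left out. That call held in 14 of these 24 fits, and the adjusted p was highest without WT replicate 1 (0.248) or siz1-2 replicate 1 (0.291) of the stage. It was also lost with the replicate block (limma adjusted p = 0.0573), in the compared groups only (0.234) and without the 4 libraries that stood apart (0.108). Another, AT1G62380, named after its values were seen, was higher at CIM 4 d by 0.69 ± 0.17 (limma adjusted p = 0.0357; 1.30% of all tested genes were called higher). It was no longer called without WT replicate 2 of that stage, which gave 0.50 (limma adjusted p = 0.144), without siz1-2 replicate 1 (0.110) or 2 (0.134), or in a fit of the compared groups alone (0.285). Of 7 other dioxygenases of known role, which act on salicylic acid (DMR6, DLO1, DLO2) or jasmonate (JOX1 to JOX4), 5 were tested, and limma, edgeR and DESeq2 called none over the stages, while 2 had an unadjusted p below 0.05 in limma; their median was -0.04.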

How the data were processed

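RNA sequencing of 24 libraries in 8 groups of 3 was analysed from deposited values. Tools named in the submitters' processing notes are Bowtie 1.2.1 and bcl2fastq, with TAIR10 as the build; how reads were counted is not stated there. The deposited signal was, for each of 33864 transcript isoforms, a whole read count scaled to 1000000 (rpm) by 1 total per library: 100% of values came out whole (tolerance 0.001 read). Columns summed to 1533760 to 1708918 rpm, more than the totals allow for single counting, so reads were counted for more than 1 isoform.

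A gene's value was its isoform with the highest mean. Genes with at least 1 rpm in at least 3 libraries were tested (20361; 5599 were not) with limma 3.58.1 (R 4.3.3; trend, robust) on log2(rpm + 1), with 8 group means, 16 residual degrees of freedom and Benjamini-Hochberg adjustment at 0.05. edgeR 4.0.16 (quasi-likelihood) and DESeq2 1.42.0 were run on the recovered reads: over the stages edgeR called 2223 genes and limma 2539. In simulated counts for the genotype comparison over the stages, limma and edgeR called 100% of 50 genes at each log2 change of -2, -1, 1 and 2, among 19868 genes. The changed genes were drawn above a minimum level. All genes had the same dispersion, no stage effect was simulated, and no library stood apart. Smaller changes, such as those of AT1G06640 and AT1G06650 over the stages, were not simulated. Sequences, identities and words came from the TAIR10.1 genome and annotation (NCBI). The genes named were the 4 dioxygenases, the flanking genes, listed genes called over the stages and the 5 or 2 genes of highest r; AT5G43440, AT1G03410, AT1G62380 and GSL-OH were named after their values were seen. The 4 genes and the lists were chosen with earlier results of these data known.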

Additional observations from a re-analysis of the deposited data

Results flagged for a closer look

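The step from 0 d to CIM 4 d of AT1G06620 differed between the genotypes in the test of the difference itself, by 0.99 ± 0.23 on the log2(rpm + 1) scale (limma adjusted p = 0.0237). AT1G06620 fell by 2.12 in WT, from 40.2 to 8.55 rpm, and it fell by 1.13 in siz1-2, from 2.85 to 0.760 rpm. At this step limma called 26.6% of all tested genes lower in WT and 27.3% in siz1-2. Over 35 alternatives the difference ran from 0.29 (DESeq2 on the reads, adjusted p = 0.824) to 1.295 (limma with a pseudocount of 5, adjusted p = 6.66e-06). Of these, 26 kept the call, among them every fit without 1 SIM library, and this step compares no SIM library. The call was lost in edgeR (adjusted p = 0.783) and with a pseudocount of 0.25 (limma adjusted p = 0.359). The log2(rpm + 1) scale understates changes of low values. By reads, the level at CIM 4 d was 0.218 times that at 0 d in WT and 0.266 times in siz1-2, with overlapping counting intervals. No other difference between genotypes in a step was called by limma for AT1G06620, AT1G06640 or AT1G06650.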

How the results depend on the processing

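Alternatives were pseudocounts of 0.25 and 5, no filter, isoforms summed, isoform 1, median-of-ratios scaling, edgeR, DESeq2, a replicate block, a fit of the compared groups only, leaving out each library, and leaving out the 4 libraries that stood apart. Except as given here, the results for AT1G06620, AT1G06640 and AT1G06650 kept direction and call; the cause of each change was not tested. For AT1G06620 the genotype difference, with pseudocount 0.25, pseudocount 5, edgeR and DESeq2 in that order, was -3.71, -2.52, -3.77 and -3.75 at 0 d; -3.12, -1.23, -3.46 and -3.46 at CIM 4 d; -3.57, -1.83, -3.80 and -3.83 at SIM 4 d; -3.80, -1.94, -4.12 and -4.15 at SIM 6 d; and -3.55, -1.88, -3.79 and -3.80 over the stages. Its genotype difference in the first step was 0.59 with pseudocount 0.25, 0.31 in edgeR, 0.29 in DESeq2, 0.99 in the compared groups only (limma adjusted p = 0.0539) and 1.04 without the 4 libraries (0.0663). With 1 library left out it ran from 0.87 to 1.11 and was lost without WT 0 d replicate 3 (limma adjusted p = 0.058), WT CIM 4 d replicate 3 (0.07), siz1-2 0 d replicate 2 (0.0653) or siz1-2 CIM 4 d replicate 2 (0.0646). Its siz1-2 step from CIM 4 d to SIM 4 d was called with pseudocount 0.25 (0.55, limma adjusted p = 0.0391) and without siz1-2 SIM 4 d replicate 2 (0.0257), with 1 library left out 0.24 to 0.49; the last step ran from -0.017 to 0.20 in WT and from -0.23 to 0.034 in siz1-2. AT1G06640 at SIM 4 d was called without the 4 libraries (-0.84). At SIM 6 d it was called with pseudocount 5 (-1.01), in DESeq2 (-1.04) and without the 4 libraries (-1.06). With 1 library left out its SIM 6 d difference ran from -1.25 to -0.77 and was called without WT CIM 4 d replicate 2, siz1-2 CIM 4 d replicate 3, siz1-2 SIM 4 d replicate 2 or siz1-2 SIM 6 d replicate 2. The same ranges were -0.51 to 0.17 at CIM 4 d, -0.29 to 0.20 for its last siz1-2 step, and -0.12 to 0.56 and -0.42 to 0.069 for the genotype differences in its first and last steps. AT1G06650 at SIM 4 d turned to -0.015 with isoforms summed, -0.040 with isoform 1, -0.035 with median-of-ratios scaling, -0.029 in edgeR and -0.039 in DESeq2, and ran from -0.097 to 0.094 with 1 library left out. Its first step was called in WT with median-of-ratios scaling (-0.58), edgeR (-0.57) and DESeq2 (-0.65), and in siz1-2 turned to -0.16, -0.12 and -0.20 in these; with 1 library left out the siz1-2 value ran from 0.10 to 0.34 and was called without siz1-2 0 d replicate 1. Over the stages, with 1 library left out, AT1G06630 ran from -0.011 to 0.063 and NIH from -0.033 to 0.038; without the 4 libraries JASON was 0.011, NIH 0.029 and PSBP-1 0.53. In their deviations from group means, same-numbered replicates of the 2 genotypes at 1 stage correlated from -0.731 to 0.607. Deviations within a group of 3 depend on each other, and single libraries stood apart. These correlations therefore cannot show whether the numbers pair the libraries. The replicate block changed no call of the 3 genes (AT1G06640 over the stages -0.60, limma adjusted p = 0.013). AT1G06645 and AT1G06620 in siz1-2 rest on few reads, which limits their precision.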
